A study of Mus musculus with 48 samples.

Results

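The genes described here are 9 receptors through which myeloid cytokines act, measured in single mouse fetal liver cells labelled BFU-E, the early burst-forming progenitor of the red cell lineage. They were chosen by symbol, Csf3r, Csf2ra, Csf2rb, Csf2rb2, Csf1r, Il6ra, Il6st, Il3ra and Flt3, and all 9 are among the 24062 genes of the count table. The series holds 48 cells of 1 group, taken at embryonic day 14.5 from fetal livers of unstated strain and genotype. No agent is given for these cells, and the cultures with dexamethasone or TGF-beta inhibitors that the labels describe are not among them. Per the labels, cells carrying lineage markers, among them the myeloid antigens Mac-1, Gr-1 and CD16/CD32 as well as CD34, were removed with beads, c-Kit was selected for, and the 10% lowest by CD71 were sorted. None of the 9 receptors is named in that mouse sort. The labels name no animal, litter or chip, so the 48 cells are 1 sample, and the values below describe these cells without any p-value.

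Class I cytokine receptors have no enzyme of their own and signal through Janus kinases and STAT factors bound to their tails. The receptor for G-CSF, the main growth factor of neutrophils, is a pair of Csf3r chains. GM-CSF and IL-3 each use a specific alpha chain, Csf2ra or Il3ra, with a shared beta chain, Csf2rb, and the mouse has a further beta chain, Csf2rb2, that serves IL-3 alone. IL-6 binds Il6ra and signals through Il6st, also called gp130. Csf1r and Flt3 are receptor tyrosine kinases, the former needed by monocytes and macrophages, the latter present on multipotent and lymphoid-primed progenitors. As background, Gata1 is the master factor of the erythroid line, Mpo encodes the myeloperoxidase of granulocyte and monocyte precursors, and Tgfbr3 is the type III TGF-beta receptor.

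The beta chain pair carries a limit that its sequence shows. Csf2rb (GRCm38 chromosome 15, 78325752 to 78353847, plus strand) and Csf2rb2 (78282507 to 78305721, minus strand) lie side by side. Their coding sequences, of 2688 and 2634 bases in GENCODE M21, are identical at 95.2% of 2628 bases aligned without gaps. The longest exact run they share is 242 bases of coding exon, at coding positions 2083 to 2324 in both, which in Csf2rb is chr15:78348577-78348818 on the plus strand. It is shown because no single read of 50 to 75 bases lying inside it can be assigned to either gene.

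Csf2rb and Csf2rb2: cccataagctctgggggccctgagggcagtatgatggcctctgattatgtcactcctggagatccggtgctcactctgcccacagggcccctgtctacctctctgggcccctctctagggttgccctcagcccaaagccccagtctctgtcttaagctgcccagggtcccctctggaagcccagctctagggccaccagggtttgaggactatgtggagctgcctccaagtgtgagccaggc

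Of all distinct 50-base stretches in their annotated transcripts, 12.3% in Csf2rb and 18.9% in Csf2rb2 also occur in another gene, nearly all of them in the other beta chain. How the submitters' counting treated such reads is not given in the sources used here, so levels of both chains are uncertain to that extent. For Csf1r 14.3% of stretches also lie in Hmgxb3, which overlaps it on the opposite strand, and whether reads were counted by strand is not given either. For Csf3r 10.8% of stretches occur elsewhere, spread over 402 other genes. The share was 2.29% for Il6ra and 0.0490% for Flt3, and for Csf2ra, Il6st and Il3ra no such stretch was found.

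Depth ran from 246007 to 3211186 counts per cell, with reads of 5180 to 7935 genes. Levels are CPM, the usual counts-per-library scale, here with library sizes adjusted by TMM. The label was checked against markers: all 6 erythroid markers (Gata1, Klf1, Gfi1b, Epor, Car2 and Car1) were detected in 10 or more cells, as were all 8 of neutrophil and monocyte precursors. Some libraries need naming before the results. Of the 48 cells, 3 had 7, 9 and 10 of 10 macrophage markers at 10 CPM or more, against at most 3 in the other 45, and their summed macrophage markers ran from 2513 to 66147 CPM against 0 to 122 CPM. The cell with 7 also held Gata1 at 336, Kit at 491 and Tgfbr3 at 199 CPM. These 3 cells were set aside for every relation below. Of the 45 others, 18 had Mpo at 1000 CPM or more, and Gata1 was under 10 CPM in 16 of those. The 2 remaining cells of those 18 held Gata1 at 53.7 and 811 CPM beside Mpo at 7904 and 6329 CPM. Whether a chip chamber held more than 1 cell was not tested, and no doublet caller was run on 48 cells.

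At least 1 read in 10 or more of the 48 cells was found for 6 members, against 40.3% of all genes in the table. At the stricter limit of 10 CPM in at least 10 cells the members were Csf3r and Csf2rb, against 26.8% of all genes. The members' share was above that of the table at 1 read, 6 of 9, and close to it at 10 CPM, 2 of 9. A single cell held few of the receptors: 20 of 48 cells held no member at 10 CPM, 10 held 1, 7 held 2, 7 held 3, 3 held 4 and 1 held 5. Each share of cells is given below with its 95% Clopper-Pearson interval, which covers counting error only.

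**Figure D1:**
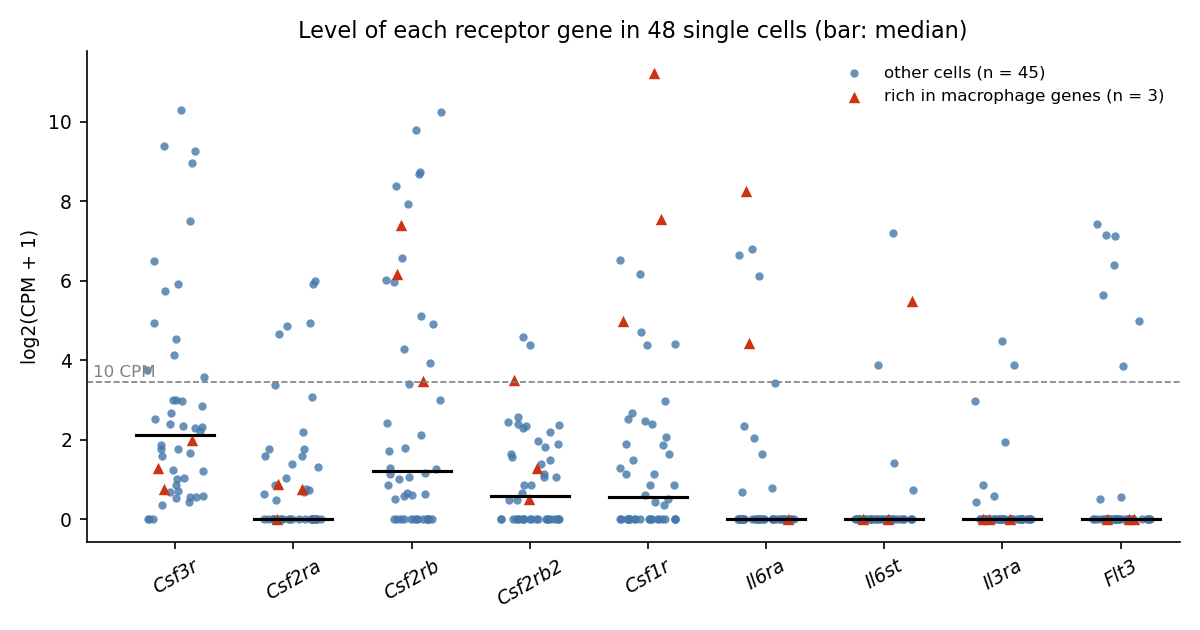
Level of each of the 9 receptor genes as log2(CPM + 1), 1 point per cell, with the 3 cells rich in macrophage genes as triangles, the median of 48 cells as a bar and 10 CPM as a dashed line. Csf3r and Csf2rb reach 1247 and 1203 CPM, and Csf1r is highest in a cell rich in macrophage genes, at 2384 CPM.

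Csf3r, the G-CSF receptor (chromosome 4, 126024550 to 126044440, plus strand), was the most widely read member. It ran from 0 to 1247 CPM with a median of 3.33 CPM, and 45 of 48 cells had a read (interval 82.8 to 98.7%). The median cell therefore held only a trace, and 17 cells had 1 to 4 reads. With 5 reads as the limit 28 cells held it. Whether trace reads came from the stretches shared with other genes was not tested. Above 10 CPM were 13 cells and above 100 CPM 5, at 180, 497, 608, 672 and 1247 CPM. The mean of 74.6 ± 226 CPM (SD, n = 48) rests on these: the highest 3 cells held 70.6% of the summed CPM.

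Csf2rb, the common beta chain, was read in 34 cells (interval 55.9 to 83.1%), from 0 to 1203 CPM with a median of 1.34 CPM. Of the 48 cells 16 held at least 10 CPM of it and 7 at least 100 CPM, and the mean was 85.5 ± 228 CPM (SD, n = 48). Csf2rb2 was far lower, with a read in 27 cells (interval 41.2 to 70.5%), a median of 0.502 CPM and a highest value of 22.9 CPM. It reached 10 CPM in 3 cells, and 2 of these had Csf2rb under 1 CPM, at 0.827 and 0 CPM.

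The alpha chains were scarce. Csf2ra (chromosome 19, 61223957 to 61228429, minus strand) was read in 23 cells (interval 33.3 to 62.8%), from 0 to 62.6 CPM with a median of 0 CPM, and reached 10 CPM in 5. Il3ra (chromosome 14, 14346275 to 14356011, plus strand) was read in 7 cells (interval 6.07 to 27.8%), at no more than 21.3 CPM, and reached 10 CPM in 2. Il6ra (chromosome 3, 89864059 to 89913196, minus strand) was read in 11 cells (interval 12.03 to 37.3%), reached 10 CPM in 5 and had its highest value, 304 CPM, in a cell rich in macrophage genes. Its signalling partner Il6st (chromosome 13, 112464070 to 112510086, plus strand) was the least often read of the 9, in 5 cells (interval 3.47 to 22.7%), and 1 cell at 145 CPM held 70.7% of its summed CPM.

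The receptor kinases differed in kind. Flt3 (chromosome 5, 147330741 to 147400489, minus strand) was read in 9 cells (interval 8.95 to 32.6%) but was seldom a trace: 7 of the 9 were at 13.4 to 170 CPM and the other two at 0.473 and 0.439 CPM. Csf1r (chromosome 18, 61100598 to 61132149, plus strand) was read in 27 cells (interval 41.2 to 70.5%), with a median of 0.481 CPM. Its mean of 59.9 ± 344 CPM (SD, n = 48) was 6.07 ± 17.4 CPM over the 45 cells, because 1 cell rich in macrophage genes held 2384 CPM, and the other two of that kind 186 and 30.8 CPM. Among the 45, the highest Csf1r was 91.5 CPM.

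Per kilobase of annotated exon, which allows genes to be set side by side, mean levels were ordered Csf3r (20.7 CPM per kb), Csf2rb (11.8), Csf1r (10.4), Flt3 (2.12), Csf2ra (1.76), Il6ra (1.50), Csf2rb2 (0.469), Il6st (0.385) and Il3ra (0.326). Over the 45 cells Csf1r fell to 1.05 CPM per kb and passed below Flt3 and Csf2ra, at 2.26 and 1.87 CPM per kb. Il6ra fell to 0.770 CPM per kb, since 1 cell rich in macrophage genes held 48.7% of its summed CPM. Each SD over cells was larger than its mean, 62.7 CPM per kb for Csf3r and 31.4 for Csf2rb, so neighbours in this order do not differ beyond their spread. The 3 axis genes stood higher, with Gata1 at 118, Mpo at 1443 and Tgfbr3 at 25.5 CPM per kb.

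A receptor of unlike chains needs both in the same cell. At 10 CPM that was rare, but most single chains were scarce as well. Csf2ra was at that level in 5 cells, Csf2rb in 16, Il3ra in 2, Il6ra in 5 and Il6st in 3. Whether chains were together more or less often than these counts alone would give was not tested. Csf2ra and Csf2rb were together in 1 cell, at 62.6 and 93.9 CPM, while Csf2ra was alone in 4 and Csf2rb in 15. Il3ra was with a beta chain in 1 cell, at 21.3 CPM of Il3ra and 14.2 CPM of Csf2rb, and its other cell, at 13.7 CPM, had neither beta chain at that level. Il6ra and Il6st were together in 1 cell, which was rich in macrophage genes, and in none of the other 45. With 1 read as the limit the pairs were together in 20, 6 and 3 cells, and with 5 reads in 5, 3 and 2. Single-cell libraries of this kind lose many transcripts, so a chain without a read was not shown to be absent from the cell.

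Receptors were concentrated in the cells with much Mpo. All 18 cells with Mpo at 1000 CPM or more held at least 1 of the 9 receptors at 10 CPM, against 7 of the 27 other cells, and 14 of the 18 held 2 or more, against 1 of 27. None of the 6 cells with Mpo under 10 CPM held a receptor at that level. With 5 CPM as the limit for a receptor the counts were 18 of 18 and 12 of 27, and with 20 CPM 17 of 18 and 4 of 27. With every cell thinned to 246007 counts they were 18 of 18 and 8 of 27. The limit of 1000 CPM for Mpo was chosen after values were seen. With 100 CPM of Mpo in its place, 21 of 27 cells held a receptor at 10 CPM, against 4 of 18 with less Mpo. The same counts for other sets of genes were not made. Rank correlation of the members with total counts ran from -0.28 for Il6st to 0.18 for Il3ra.

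**Figure D2:**
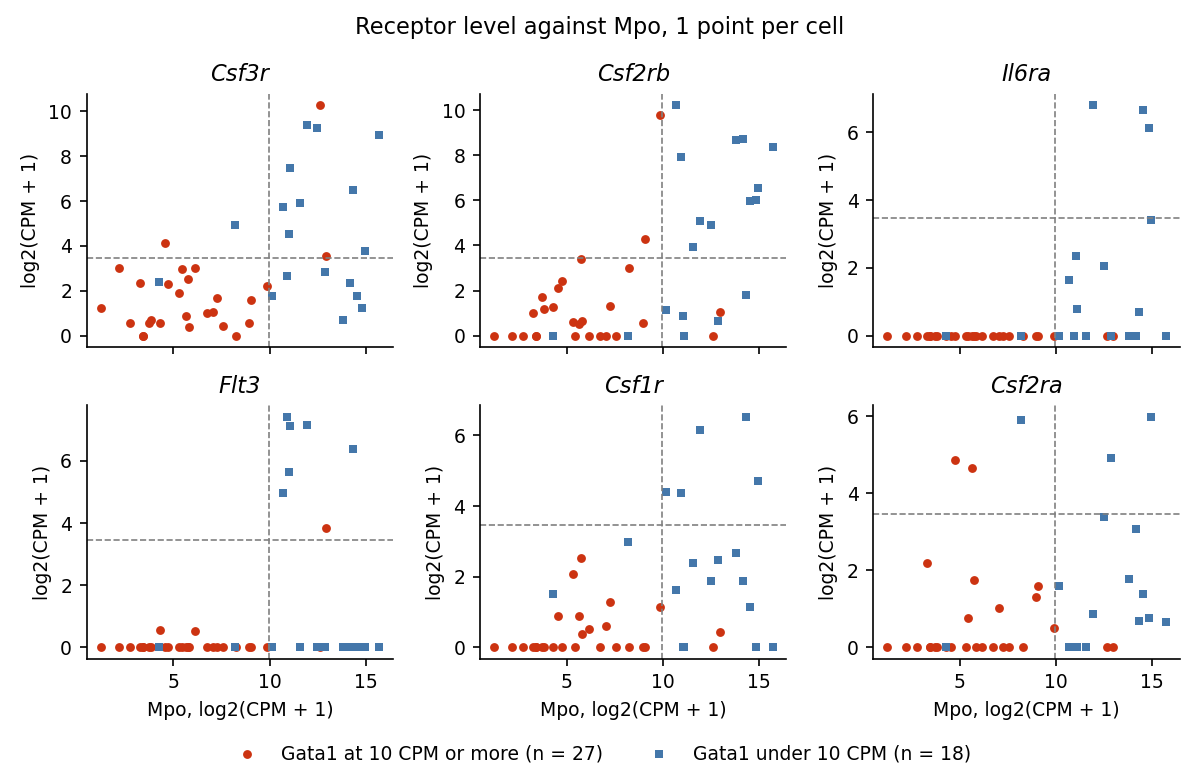
Level of 6 receptor genes against Mpo in 45 cells, both as log2(CPM + 1), with Gata1 at 10 CPM or more in red circles (27 cells) and under 10 CPM in blue squares (18 cells). Dashed lines mark 1000 CPM of Mpo and 10 CPM of the receptor. Flt3 and Il6ra at 10 CPM lie only to the right of the Mpo line here, while Csf2ra lies on both sides.

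Single genes differed in which cells held them. The 7 cells with Flt3 at 10 CPM all had Mpo between 1631 and 20424 CPM, Kit and Cd34 at 10 CPM or more, and a second receptor, which was Csf3r in 6. Gata1 was between 0 and 1.05 CPM in 6 of them and at 53.7 CPM in 1. Elane, a protease of maturing neutrophil precursors, reached 100 CPM in 1 of these 7 cells. It did so in 7 of the 13 cells with Csf2rb at 10 CPM and in 4 of the 13 with Csf3r. Among the 45 cells, the 3 with Il6ra at 10 CPM had Mpo at 3885 CPM or more and Gata1 at 2.08 CPM or less. The 5 with Csf1r at 10 CPM likewise all had Mpo above 1000 CPM, with Gata1 no higher than 9.31 CPM.

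Csf3r and Csf2rb each reached 10 CPM in 13 of the 45 cells, 11 of them with Mpo at 1000 CPM, and 6 cells held both. Whether 6 differs from what these counts alone would give was not tested. In each gene 1 of the highest cells also held much Gata1. The highest Csf3r, 1247 CPM, was in the cell with Gata1 at 811 and Mpo at 6329 CPM, which had no read of Tgfbr3 or Csf2rb. The next 4 cells by Csf3r had Gata1 at 0.413 to 1.69 CPM. For Csf2rb the highest cell, at 1203 CPM, had Gata1 at 1.05 CPM, and the second, at 883 CPM, had Gata1 at 429, Tgfbr3 at 77.0 and Mpo at 935 CPM.

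Csf2ra was found in cells of both kinds. Of its 5 cells at 10 CPM, 2 had Mpo at 31254 and 7473 CPM. Another 2, with Csf2ra at 28.02 and 24.3 CPM, had Gata1 at 1077 and 1245 CPM and Mpo at 25.7 and 48.6 CPM. The fifth had Csf2ra at 59.4 CPM with Kit at 3881 CPM, the highest Kit of all 48 cells, and a total of 507732 counts.

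**Figure D3:**
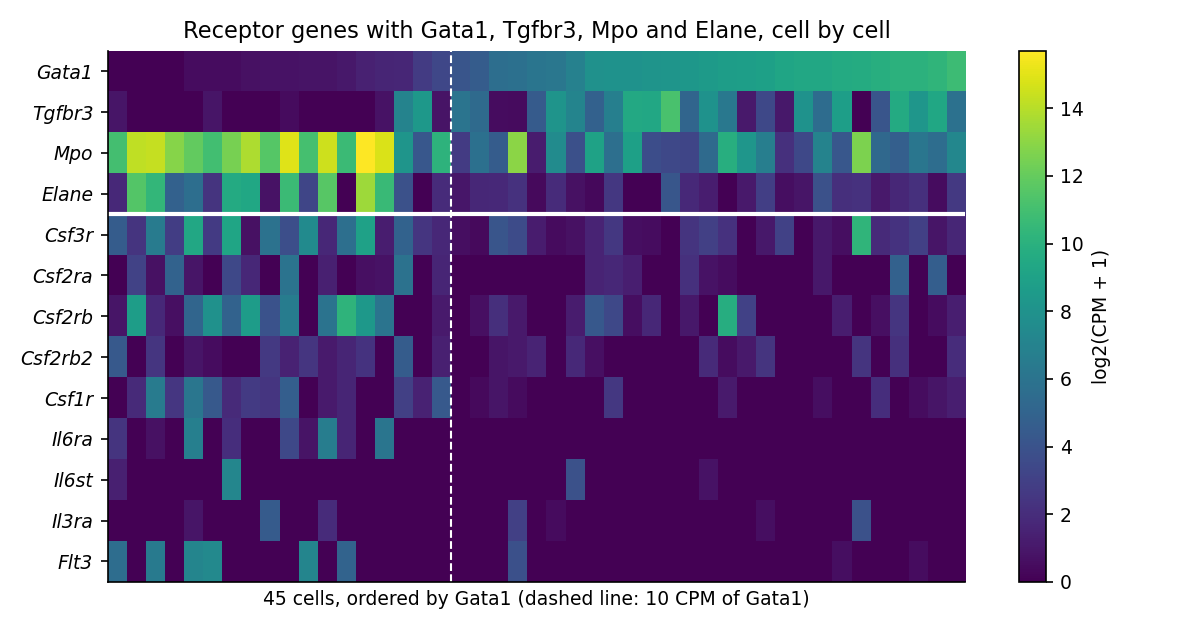
Log2(CPM + 1) of Gata1, Tgfbr3, Mpo, Elane and the 9 receptor genes in 45 cells, 1 column per cell, ordered from low to high Gata1, with a dashed line at 10 CPM of Gata1. To the left of that line 17 of 18 cells held a receptor at 10 CPM, against 8 of 27 to the right. The highest single value, Csf3r at 1247 CPM, lies to the right, in a cell with Gata1 at 811 CPM.

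Against Gata1 the counts ran the other way. A receptor at 10 CPM was found in 17 of 18 cells with Gata1 under 10 CPM and in 8 of 27 with more, and 2 or more receptors in 13 of 18 and 2 of 27. Il6ra was read in 9 of 18 cells with little Gata1 and in 0 of 27 with more, which allows a share of up to 11.1%. Csf3r had a read in 24 of the 27 cells, with a median of 1.32 CPM, against 17.5 CPM in the 18. Csf2rb had a median of 0.536 CPM in the 27 and 31.3 CPM in the 18, with highest values of 883 and 1203 CPM. Csf1r reached no more than 4.78 CPM in the 27 cells, and Csf2rb2 no more than 4.22 CPM.

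Against Tgfbr3 the counts were similar in direction. Of 23 cells with Tgfbr3 at 10 CPM, 6 held a receptor at that level, against 19 of 22 with less. Csf3r at 10 CPM was seen in 1 of the 23, at 29.7 CPM, and in 12 of the 22. Flt3 did so in 0 and 7, and Csf1r in 0 and 5. Il6ra was read in 0 of 23, which allows up to 13.04%, and in 9 of 22. Csf2ra was at 10 CPM in 3 of 23 and 2 of 22 cells, and Csf2rb2 and Il6st were each at 10 CPM in 1 of 23 and 1 of 22. Among the 23, the 1 cell with Csf3r was also the 1 with Csf2rb2 and 1 of the 3 with Csf2ra. It had only 507732 counts. Gata1, Mpo and Tgfbr3 themselves are related, so these are not separate observations.

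Rank correlations over the 45 cells put the members beside all genes. Of the members 5, Csf3r, Csf2ra, Csf2rb, Csf1r and Il6ra, passed a filter, set over all 48 cells, of 10 cells with reads and a mean of 5 CPM, as did 8601 genes in all. Il6ra passed it only through 2 of the cells then set aside: it was read in 9 of the 45, all 9 with Gata1 under 10 CPM, so its rho is listed apart and supports nothing here. Over the 45 cells the limit on reads would leave 4 of these members. Of these, Csf1r met the mean limit over the 45, at 6.07 CPM, only through cells with Gata1 under 10 CPM. In the 27 others it was at most 4.78 CPM, so its rhos, and the counts below that hold them, are listed only. The cells share 1 preparation and differ in depth, and many values are 0, so each rho is a description. With Gata1, 3 of the 4, Csf1r among them, had a rho of -0.4 or lower (Csf1r -0.47, Csf2rb -0.44 and Csf3r -0.43), against 2.33% of genes. With Mpo, 3 of the 4 had 0.4 or more (Csf2rb 0.57, Csf3r 0.48 and Csf1r 0.44), against 3.72% of genes. With Tgfbr3, 3 of the 4 had -0.4 or lower (Csf3r -0.61, Csf2rb -0.47 and Csf1r -0.41), against 2.84% of genes. Csf2ra stayed within these limits, at -0.24, 0.38 and -0.13. Il6ra had -0.54, 0.53 and -0.51, which makes each count 4 of 5. Median rho of the 5, Il6ra included, was -0.44, 0.48 and -0.47, beside 0.01, 0.00238 and -0.00491 over all genes. Since they hold Il6ra, these medians and the counts of 4 of 5 are listed only. Members were named together with these 3 genes, and the percentages are context, not a test.

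**Figure D4:**
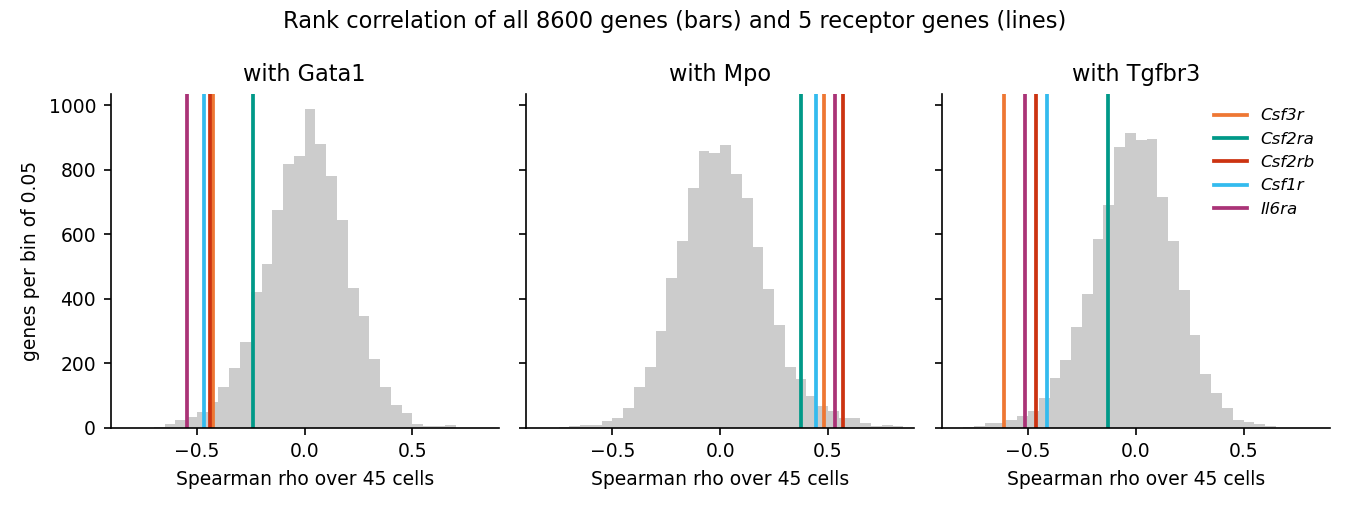
Spearman rho over 45 cells with Gata1, Mpo and Tgfbr3 for all 8600 other genes (grey bars, genes per bin of 0.05) and for the 5 receptor genes that passed the filter (coloured lines). Of the 5 lines, 4 lie past 0.4 in each panel, among them Il6ra, which was read in 9 of the 45 cells, and Csf2ra lies nearest the centre.

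The cells set aside matter for the relation to Mpo. Over all 48 cells Csf1r and Il6ra had a rho of 0.32 and 0.37 with Mpo, and 2 of the 5 members reached 0.4 in place of 4. With only the 2 cells of 9 and 10 macrophage markers set aside the count was 4 with Mpo, 4 with Gata1 and 3 with Tgfbr3.

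The other 4 members did not pass the filter. Csf2rb2, read in 24 of the 45 cells, failed it on its mean of 2.22 CPM alone, and had a rho of -0.20 with Gata1, 0.32 with Mpo and -0.35 with Tgfbr3. Flt3, read in 9 of the 45 cells as Il6ra was, had -0.32, 0.26 and -0.26, all short of 0.4. All 7 cells with an Il3ra read had Mpo at 100 CPM or more, and 4 of the 7 had Gata1 at 10 CPM. Il6st was read in 2 cells with Gata1 at 10 CPM and 2 without among the 45, and its 2 cells at 10 CPM had Mpo at 5709 and 13.2 CPM.

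Among themselves the 5 members ranked alike to a lesser degree. All 10 pairs of these 5, those with Il6ra included, had a positive rho. It ran from 0.17 for Csf3r with Csf2ra to 0.42 for Csf3r with Il6ra, with a median of 0.34. Pairs with Il6ra, read in 9 of the 45 cells, are listed only and support nothing here. Among the 5, the highest rho without Il6ra was 0.42, for Csf2rb with Csf1r. Csf2rb2, outside the 5 but read in 24 of the 45 cells, had 0.51 with Csf3r and 0.24 with Il6ra. With Csf2rb, Csf1r and Csf2ra it had 0.08, 0.04 and -0.08, so the range above does not hold with Csf2rb2 added. The share over pairs of all genes was not computed, so these counts are a description. Csf3r and Csf2rb, the most abundant pair, had a rho of 0.21. The GM-CSF receptor pair, Csf2ra and Csf2rb, had 0.33. A rho of 0.4 was reached by 4 pairs, Csf3r with Il6ra among them, and by 1 after thinning, while 0 reached it by Pearson's r of log2(CPM + 1).

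The 3 genes most like each member by rank were taken over the same 45 cells and 8601 genes. For Csf3r they were Cd69 (rho 0.63), Milr1 (0.59) and Klhl5 (0.57). For Csf2rb they were Cst7 (0.64), F630028O10Rik (0.63) and Prtn3 (0.62), the last a neutrophil granule protease. For Csf1r they were Emr1 (0.61), which encodes the F4/80 antigen of macrophages, Samd8 (0.61) and BC035044 (0.55). Csf2ra was most like Soat1 (0.59), Cybb (0.55), a subunit of the phagocyte oxidase, and Irf2bp2 (0.55). Il6ra was most like Gpr65 (0.69), Dtx4 (0.65) and Parp8 (0.64), with Gpr65 read in 12 cells only.

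Ligands of these receptors were nearly absent from the cells. Of 8, Csf3, Csf2, Il34, Il3 and Il5 had no read in 48 cells, which limits the share of cells with such a read, not of cells with the transcript, to 6.25%. Csf1 was read in 7 cells, with 247 CPM in the highest, Il6 in 6, up to 57.5 CPM, and Flt3l in 5, up to 7.62 CPM.

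Few signalling genes below the receptors passed 0.4, and with 1.47 to 3.72% of all genes past it in a given direction, counts of 0 or 1 in lists this short say nothing particular about them. All 11 Janus kinase and STAT genes were detected in 10 or more cells. Of the 11, 1 had a rho of -0.4 or lower with Gata1, Stat4 (-0.61, and 0.51 with Mpo), while 1 had 0.4 or more, Stat5a (0.40). Stat5b had -0.14 with Gata1 and -0.05 with Mpo. Of 11 adaptors and brakes that passed the filter, 0 passed 0.4 in either direction with Gata1, Mpo or Tgfbr3. Socs3, the brake on G-CSF and IL-6 signals, had no read in 48 cells, Socs1 a read in 1 and Cish in 6. Of 7 known STAT targets, 1 passed with Mpo, Id1 (0.50). Among other class I receptor chains, Epor had a rho of 0.41 with Gata1 and -0.46 with Mpo. Epor was 1 of 8 chains of that list to pass with either gene. Kit passed with none of the 3.

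Marker genes moved with the receptors, and their part in the results was not tested. Of the neutrophil and monocyte precursor markers, 6 of 8 had a rho of -0.4 or lower with Gata1 and with Tgfbr3, and 7 of 7, Mpo itself left out, 0.4 or more with Mpo. Summed over all 8, Mpo included, their level ran from 5.95 to 79965 CPM over the 45 cells. This sum had a rho of 0.60 with Csf2rb and 0.47 with Csf3r. Since it holds Mpo, these values are not separate from the rhos with Mpo alone, 0.57 and 0.48. Of the erythroid markers, 4 of 5 had 0.4 or more with Gata1 (1.72% of all genes), 6 of 6 had -0.4 or lower with Mpo (1.62%) and 5 of 6 had 0.4 or more with Tgfbr3 (1.47%). Their summed level, Gata1 included, had a rho of -0.57 with Csf2rb and -0.39 with Csf3r. Among myeloid transcription factors Cebpa, which drives Csf3r in granulocyte precursors, had a rho of -0.64 with Gata1 and 0.64 with Mpo. It was the 1 of 5 tested factors at -0.4 or lower with Gata1, and 2 of 5, with Runx1 (0.43), reached 0.4 with Mpo. Spi1, Irf8 and Gfi1 had 0.40, 0.35 and 0.38 with Mpo, the first just under the limit. The 4 cells with Cebpa at 10 CPM, among the 45, all held Csf3r at 10 CPM, as did 13 of the 45 in all. Csf3r was at that level in 5 of 10 cells with Spi1 and 4 of 7 with Irf8 at 10 CPM. A link of any of these factors to Csf3r was not tested. Macrophage markers in the 45 cells had no member of 9 past 0.4 with any of the 3 genes. That count decides nothing, because the cells set aside were chosen by these same markers and were included when the filter was set. In the 45 cells left, summed macrophage markers had a median of 3.4 CPM and a highest value of 122 CPM. Among markers of other lineages, rho with Mpo was 0.61 for Cd79b (lymphoid), 0.44 for Cpa3 (mast cell and basophil) and 0.43 for Cst3 (dendritic), and rho with Tgfbr3 was 0.45 for Itga2b, 1 of 3 megakaryocyte markers tested. Cd79b, Cpa3 and Cst3 are each the only gene of their list that passed the filter and do not stand for a cell type: Cd3e and Cd79a were read in 1 cell each, Dntt, Ebf1 and Cd209a in 0, and Xcr1 had a rho of -0.04 with Mpo. Cd34, whose protein the sort removed, reached 10 CPM in 19 of the 45 cells, among them 10 of the 13 with Csf2rb, 9 of the 13 with Csf3r and all 7 with Flt3 at that level. Mast cell markers Fcer1a, Prss34 and Gzmb and the eosinophil marker Epx had no read in any cell. The other genes of these lists did have reads. Cpa3 reached 10 CPM in 12 cells, with a highest value of 2247 CPM. Mast cell and basophil markers Ms4a2 and Mcpt8 were read in 2 cells each, up to 713 and 30.15 CPM. Of the eosinophil list, Prg2 was read in 2 cells, up to 32.97 CPM, and Il5ra in 42 cells.

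Promoters are shown for Il6ra, which had no read in cells with Gata1 at 10 CPM, and Csf3r, the most widely read. Each run ends just before the first annotated transcript start, is read 5′ to 3′ on the gene's strand and comes from RefSeq (GRCm38.p6). Capitals mark the letters searched on both strands: GAGGAA, the core bound by PU.1, and AGATAA, the core bound by GATA factors.

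Il6ra, chr3:89913197-89913446, minus strand: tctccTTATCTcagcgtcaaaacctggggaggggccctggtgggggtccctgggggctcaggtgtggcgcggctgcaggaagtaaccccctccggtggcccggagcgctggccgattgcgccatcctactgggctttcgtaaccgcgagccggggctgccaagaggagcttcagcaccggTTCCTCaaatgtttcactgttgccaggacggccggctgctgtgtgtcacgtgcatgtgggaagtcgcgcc

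Csf3r, chr4:126024409-126024549, plus strand: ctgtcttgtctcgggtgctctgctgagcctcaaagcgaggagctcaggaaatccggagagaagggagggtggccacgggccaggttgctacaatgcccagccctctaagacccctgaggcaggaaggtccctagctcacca

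Over the 250 bases before the RefSeq start, GAGGAA occurred in Csf3r (1 match, beyond the bases shown), Csf2ra (2), Csf2rb2 (1) and Il6ra (1), and in 23.3% of 32851 promoters. AGATAA occurred in Il6ra (1 match) and in 9.99% of promoters. TTGCNNAA, a core bound by C/EBP factors, occurred in Il3ra (1 match) and in 9.56% of promoters. Of the 9 members 7 had an entry. A match describes letters, not a bound site, and its absence says only that these letters are not in this window.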

How the data were processed

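Cells were captured with the Fluidigm C1 system, amplified by SMART-Seq and made into Nextera XT libraries, per the labels' protocols. The submitters' processing notes name TopHat2 2.0.12, Subread, featureCounts 1.4.6 and the build mm10. The deposited table holds whole-number read counts per gene, and the authors' second table holds log2 normalized counts, which equalled log2 of the count over the DESeq2 size factor, plus 1, within 1e-06. No column name could be matched to a sample title, and every cell has the same group. No 2 columns were identical.

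CPM used edgeR 4.0.16 TMM library sizes (factors 0.419 to 1.70) in R 4.3.3. DESeq2 1.42.0 gave size factors for an alternative. Python 3.11.15 with numpy 2.4.6, pandas 2.3.3, scipy 1.17.1 and matplotlib 3.10.9 gave the rest. A cell with at least 5 of 10 macrophage markers at 10 CPM was set aside. Spearman's rho was computed over the other 45 cells, and a size of 0.4 counted. Positions and exon lengths are from GENCODE M21 (GRCm38), since the submitters' annotation is not given in the sources used here. The correlation step was tested on simulated data. Reads carry no molecular identifiers, and intervals and the limit of 3 counts cover counting error only.

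Named genes are the 9 members, Gata1, Mpo and Tgfbr3, the 3 genes of highest rho with each member that passed the filter, and members of the lists. Members and lists were chosen with earlier results of these data known. Comparisons at Mpo of 1000 CPM and single cells described were chosen after values were seen. No groups are labelled, so no test between groups was made.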

Additional observations from a re-analysis of the deposited data

How the results depend on the processing

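Of 135 recomputed rhos of the 5 members with Gata1, Mpo and Tgfbr3, 106 kept their side of 0.4 and lay within 0.1 of the reported value, 29 did not, 133 kept their sign and 0 of those past 0.4 reversed. The 2 that changed sign were Csf2ra with Tgfbr3, at 0.06 by Pearson's r of log2(CPM + 10) and 0.01 after thinning. Pearson's r with that pseudocount left 2 of 5 members past 0.4 with Gata1 and 1 with Tgfbr3, against 4 and 4. Over all 48 cells 2 of 5 passed with Mpo, against 4. Counts of members and pairs past 0.4 in this section include Il6ra and Csf1r, whose rhos are listed only. The members with detection in at least 10 cells were 6 at 1 read, 2 at 10 CPM and 0 at 100 CPM. Cells with both chains of the GM-CSF, IL-3 and IL-6 receptors numbered 20, 6 and 3 at 1 read, 5, 3 and 2 at 5 reads, and 3, 1 and 0 at 10 CPM after thinning, against 1, 1 and 1. Pairs of members past 0.4 were 0 by Pearson's r and 1 after thinning, against 4. Cells with Mpo under 1000 CPM that held a receptor were 12 at 5 CPM and 4 at 20 CPM, against 7. The cause of these changes was not tested. Mean levels were compared with the SD over cells, which exceeds each mean, so that comparison says nothing about stability: without the 3 cells rich in macrophage genes the mean fell from 59.9 to 6.07 CPM for Csf1r and from 12.99 to 6.65 CPM for Il6ra. The limit of 10 CPM for receptors with Mpo and the setting with 2 cells set aside were varied after seeing the data.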

Other observations

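Some receptor chains outside the 9 were read in most cells at a low level, and they were picked out after their values were seen. Lifr, the receptor for leukemia inhibitory factor, had a read in 48 of 48 cells, with a median of 9.29 CPM and a highest value of 39.9 CPM. Lepr, the leptin receptor, was also read in 48 cells, at a median of 15.2 CPM and up to 122 CPM. Il5ra, the alpha chain for IL-5 that pairs with Csf2rb, was read in 42 cells at a median of 2.27 CPM, and reached 10 CPM in 5. Their rhos with Gata1, Mpo and Tgfbr3 lay between -0.26 and 0.24. By contrast Il2rg, the chain shared by lymphoid cytokine receptors, was read in 46 cells with a median of 47.1 CPM and a highest value of 1889 CPM.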
